A study of Mus musculus with 38 samples.

Results

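The mouse hairpins mmu-mir-29c, mmu-mir-32, mmu-mir-193a, mmu-mir-204, mmu-mir-375 and mmu-mir-532, written without the prefix from here on, give rise to miRNAs that have been described in the sperm of stressed male mice. They were followed here in the sperm of male mice that had been fed a protein restricted (PR) diet at different times of life. The 6 hairpins were chosen by name, and each had a row among the 689 miRNA hairpins with reads in at least 1 of 38 mice. C57BL6/J dams ate a control (CT) chow with 20% protein or a custom PR chow with 8% protein while pregnant and lactating, and at weaning, on day 21, their sons were placed on either diet. CTCT mice (n = 10) ate the control diet throughout, CTPR mice (n = 9) were restricted only after weaning, PRCT mice (n = 9) only before weaning, and PRPR mice (n = 10) at both times. All mice were fasted for 16 h and were 11 to 13 weeks old when the epididymis was cut up in warm medium to release the sperm, and each gave 1 small RNA library. Within a group each mouse came from a different litter, and 17 litters gave a mouse to both post-weaning diets, 8 litters of CT dams and 9 of PR dams. The PR chow was not the control chow with less protein, so the protein content and the other ingredients of the chows cannot be told apart. Mice are called by the names in the labels, in which the number and capital letter give the litter, and for the pair from litter 47I, where the labels and the study's list of mice give opposite diets, the labels were used.

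A miRNA is cut from a hairpin-shaped precursor and loaded into an Argonaute protein, where it pairs with messenger RNAs mainly through its seed, bases 2 to 8 from its 5′ end, and represses them. Hairpins with the same seed form a family whose targets overlap. Developing male germ cells make miRNAs of their own, and sperm acquire more from vesicles shed by the epithelium of the epididymis, so the miRNAs of sperm have been studied as a route by which a father's environment could reach the embryo. Of the members, miR-29c belongs to the family that represses collagens and other matrix genes, miR-375 is known from pancreatic islets, where it restrains insulin secretion, and miR-204 is known from the eye. miR-32 shares its seed with miR-25 and miR-92, miR-193a has a close copy in miR-193b, and miR-532 lies in an X-linked cluster.

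The mature sequences are shown, 5′ to 3′ with the seed in capitals, because 4 of the 6 members share a seed with another miRNA shown, and because the counts name hairpins and do not tell the arms of a hairpin or short reads from close copies apart. They were taken from RefSeq (GRCm38.p6).
miR-29c-3p: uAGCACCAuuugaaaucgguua
miR-29a-3p: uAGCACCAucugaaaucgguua
miR-29b-3p: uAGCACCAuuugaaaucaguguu
miR-32-5p: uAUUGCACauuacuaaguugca
miR-25-3p: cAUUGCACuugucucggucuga
miR-92a-3p: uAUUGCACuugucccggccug
miR-193a-3p: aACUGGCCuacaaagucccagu
miR-193b-3p: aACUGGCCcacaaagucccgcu
miR-204-5p: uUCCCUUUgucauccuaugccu
miR-211-5p: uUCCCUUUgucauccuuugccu
miR-375-5p: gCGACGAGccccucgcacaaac
miR-532-3p: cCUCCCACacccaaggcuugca
For mir-375 and mir-532 the other arms, miR-375-3p and miR-532-5p, are named only. With positions counted from 1 at the 5′ end and the member's base first, miR-29c-3p differed from miR-29a-3p by U10C alone, and miR-204-5p from miR-211-5p by A17U alone. miR-193a-3p differed from miR-193b-3p by U9C, A20G and G21C. miR-32-5p and miR-25-3p shared the seed and differed at 9 of 22 bases. The counts of mir-29c and mir-204 are therefore uncertain where a read was too short to cover the base that differs, and this applies less to mir-32.

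In GRCm38.p6, Mir29c lies at chr1:195037547-195037634 on the plus strand, inside an exon of the non-coding gene A330023F24Rik and 426 bases from Mir29b-2, and it overlaps Cd46 on the other strand. Mir375 (chr1:74900658-74900721, minus strand) and Mir193a (chr11:79711969-79712034, plus strand) overlap no other gene in the annotation used. The other 3 are intronic. Mir32 (chr4:56895229-56895298, minus strand) lies in an intron of Tmem245, Mir204 (chr19:22750605-22750672, plus strand) in an intron of the ion channel gene Trpm3, and Mir532 (chrX:7248402-7248497, minus strand) in an intron of the chloride transporter gene Clcn5. Mir188, Mir362, Mir501 and Mir500 lie within 10627 bases of Mir532 on the same strand.

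Reads matching the genome numbered 4465281 to 7612603 per mouse (median 6342719), and those assigned to miRNA hairpins 7805 to 378918. The depth behind a member therefore varied far more between mice than the depth of the library. In 10 mice fewer than 50000 reads were miRNA, 3 in CTCT, 2 in CTPR, 2 in PRCT and 3 in PRPR. The edgeR fits, the tests of share and Pearson's r with the miRNA total were also run without them. The littermate tests were also run without their litters. The permutation tests in RPM, the correlations with lists of marker hairpins and those between hairpins were run with all mice only. The miRNA share of the reads matching the genome was 1.44% ± 0.925 (SD) in CTCT, 2.47% ± 1.60 in CTPR, 1.38% ± 0.795 in PRCT and 1.39% ± 0.846 in PRPR. The miRNA total varied widely between mice, with the highest mean in CTPR, although no contrast of diet groups passed a permutation test (lowest p = 0.273), and each member is given on 2 scales, as reads per 1000000 reads matching the genome (RPM) and as its share of the miRNA reads in parts per 1000000 (ppm). All 18 germ line hairpins on a marker list were detected and took 2.09% to 9.47% of the miRNA reads, led by mir-34c at 27146 ± 9145 ppm. The lists for other cells were also above 0, with 1.77% to 4.83% for 5 epithelial hairpins, 0.0848% to 0.551% for 7 blood hairpins and 3.93% to 14.6% for 3 smooth muscle hairpins, of which mir-143 alone reached 85937 ± 19636 ppm. As a description over the 38 mice, in which all shares have the miRNA total as denominator, the log2 share of mir-375 gave r = 0.57 (rho 0.58) with the summed germ line hairpins and r = -0.62 (rho -0.48) with the smooth muscle ones. With the blood hairpins mir-375 gave r = 0.48 (rho 0.30), and with the epithelial ones r = -0.49 (rho -0.30). mir-532 gave r = 0.59 (rho 0.48) with the germ line hairpins and 0.18 (rho -0.23) with the smooth muscle ones. It gave r = -0.20 (rho -0.16) with the blood hairpins and -0.06 (rho -0.29) with the epithelial ones. In such bulk samples, fewer cells of a type and less RNA per cell cannot be told apart.

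The 6 members were minor sperm miRNAs. Together they took 0.106% to 0.666% of the miRNA reads of a mouse (median 0.161%), or 6417 reads over all 38 mice. mir-375 was the highest, with 962 ± 846 (SD, n = 38) ppm, rank 96 of the 689 hairpins by mean share. mir-532 followed with 692 ± 294 (rank 117), and these neighbours did not differ beyond the spread between mice. mir-29c, with 143 ± 79.5 (rank 181), came well below both, and its spread reached into that of mir-204. mir-204 (65.3 ± 89.3, rank 222) and mir-32 (49.5 ± 45.8, rank 239) could not be placed in order. mir-193a was near absent at 2.74 ± 9.59 (rank 415). The mature products are all about the same length, so these shares were set side by side without a correction for length. Whether the libraries captured each sequence equally well was not tested.

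**Figure D1:**
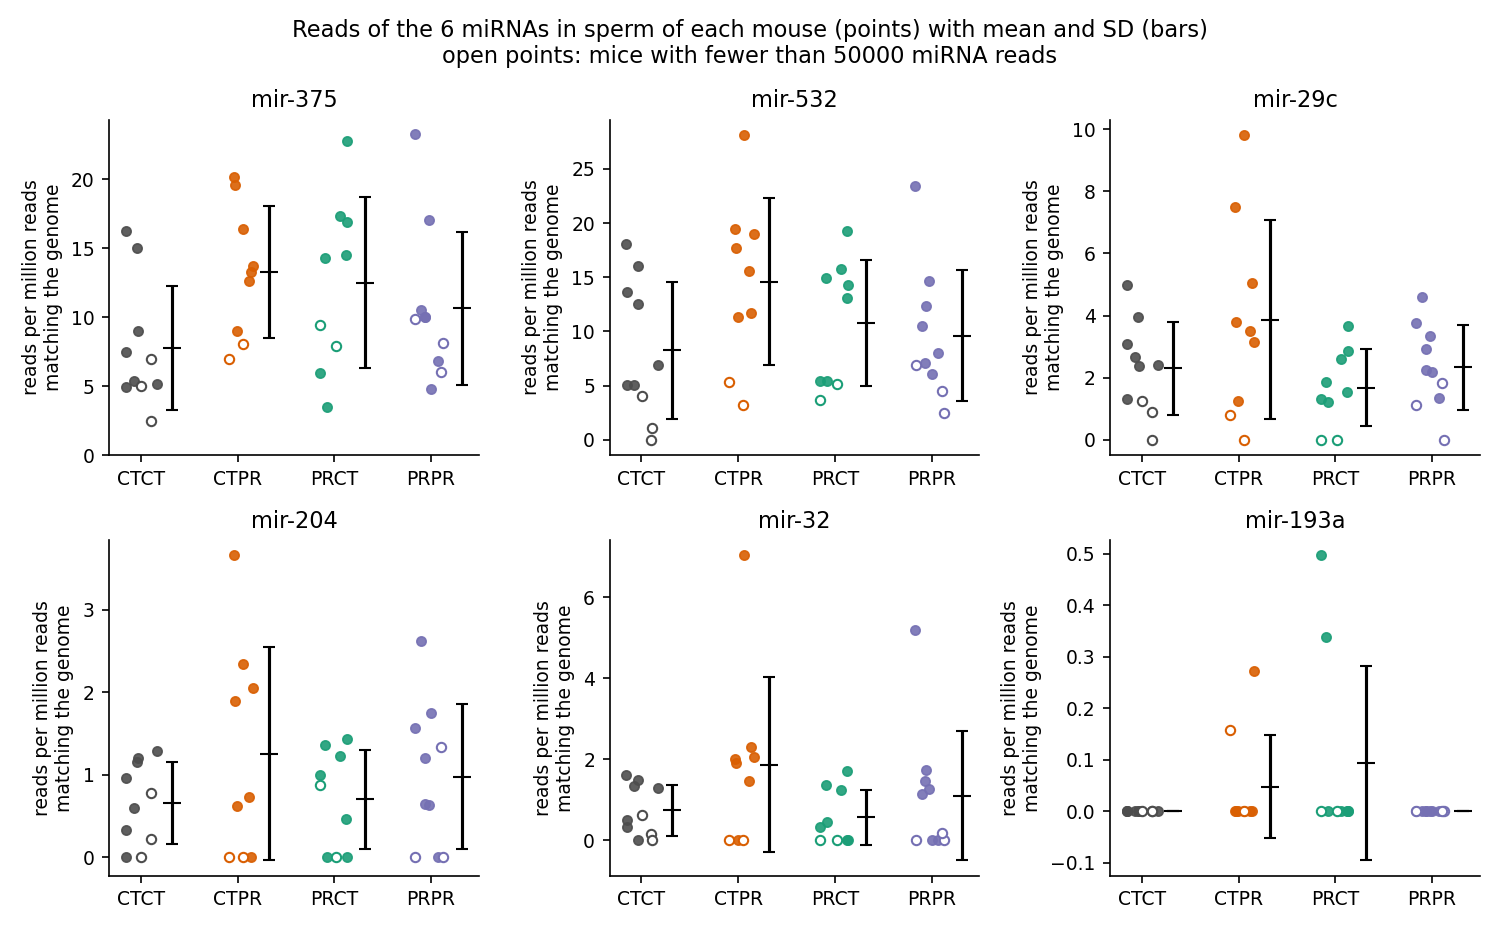
Level of each of the 6 members in every mouse, in RPM (y axis), by diet group (x axis); a point is 1 mouse and the bars give the mean and SD. mir-375 was at 2.48 to 16.3 in CTCT and 6.96 to 20.1 in CTPR mice, and mir-193a was at 0 in every CTCT and PRPR mouse.

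Restriction after weaning, CTPR against CTCT, left mir-375, the islet miRNA, with the lowest p of the 3 members tested. In CTCT mice its lowest, median and highest values were 2.48, 6.16 and 16.3 RPM, and in CTPR mice 6.96, 13.3 and 20.1 RPM. The groups overlapped, but no CTPR mouse was as low as the median CTCT mouse. In the edgeR quasi-likelihood test the log2 fold change was 0.78 (SE 0.39, 95% confidence interval -0.02 to 1.57), with p = 0.0557 and an adjusted p of 0.787 over 4091 small RNA features.

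mir-532, from the X-linked cluster, had 0, 6.01 and 18.03 RPM as its lowest, median and highest values in CTCT mice and 3.26, 15.5 and 28.1 RPM in CTPR mice. Its log2 fold change was 0.82 (SE 0.56, edgeR adjusted p = 0.787), with groups that overlapped over most of their range. mir-29c, of the collagen-repressing family, ran from 0 through 2.41 to 4.99 RPM in CTCT and from 0 through 3.52 to 9.82 RPM in CTPR mice. Its log2 fold change was 0.75 (SE 0.73, edgeR adjusted p = 0.811) and turned to -0.16 with miRNA reads as library size and to -0.048 with litter as a block. In both groups at least 1 mouse had no mir-29c read.

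None of the 3 members that passed the filter on low counts (at least 10 reads in at least 19 mice, without regard to group) was called in this comparison, where 0% of the 4091 features were called at an adjusted p under 0.05. At an unadjusted p under 0.05 the members called were again 0 of 3, against 4.08% of all features. The members' fold changes were close to those of the libraries as a whole. The median log2 fold change was 0.59 over all features and 0.78 over the 190 miRNA hairpins tested, and with TMM scaling, which brings the median of all features to 0.07, mir-375 was at 0.20. Features with an unadjusted p under 0.05 were 165 higher and 2 lower in CTPR mice in the fit as given and 34 higher and 44 lower with TMM.

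mir-375 alone reached an unadjusted p under 0.05 in RPM when tested by itself. Its mean was 13.3 ± 4.78 (SD) RPM in CTPR and 7.76 ± 4.51 RPM in CTCT mice, a log2 difference of 0.88 (two-sided exact permutation test, p = 0.0134, Benjamini-Hochberg adjusted over 190 hairpins 0.590). Of the 190 hairpins, 6.32% passed the same unadjusted test, each higher in CTPR, and mir-375 held rank 4 by p. No member passed it in the other contrasts, where the share of hairpins was 0.526% for PRCT and for PRPR against CTCT, 0.526% for PRPR against PRCT and 1.58% for PRPR against CTPR. The total of all miRNA reads differed by a log2 value of 0.75 between these groups (exact permutation test, p = 0.273).

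**Figure D2:**
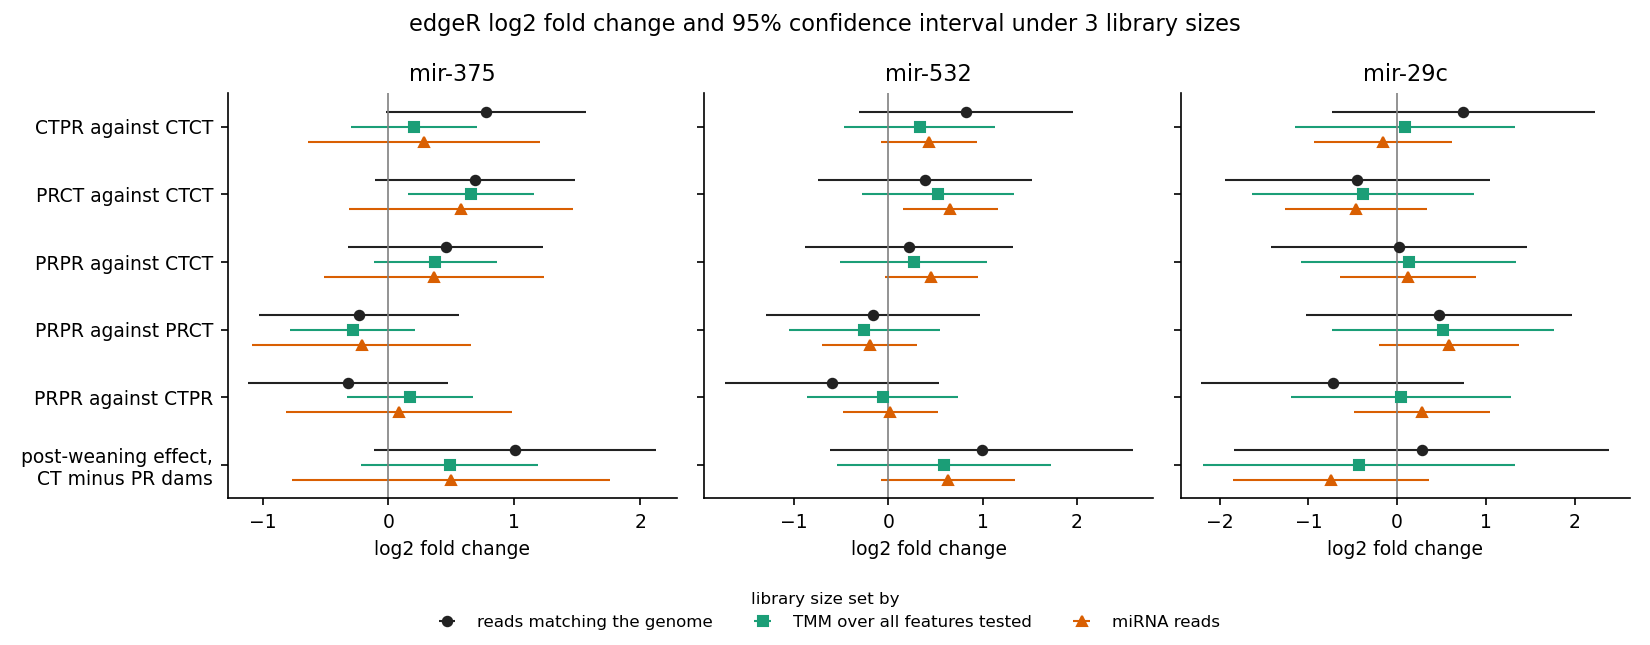
Log2 fold change with its 95% confidence interval (x axis) from edgeR fits under 3 library sizes. Values are given for mir-375, mir-532 and mir-29c in each comparison of diet groups (y axis). The intervals are wide. For CTPR against CTCT with reads matching the genome, the 3 members are at 0.75 to 0.82. The median of all miRNA hairpins, which is not drawn, was 0.78.

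Restriction before weaning only, PRCT against CTCT, left mir-375 at 3.50, 14.2 and 22.7 RPM (lowest, median and highest) in PRCT mice. The log2 fold change was 0.69 (SE 0.39, p = 0.0882, edgeR adjusted p = 1.00). PRCT mice spanned the whole CTCT range apart from its lowest values. mir-532 was at 3.66, 13.1 and 19.3 RPM in PRCT mice with a log2 fold change of 0.39 (SE 0.56). mir-29c, at 0, 1.54 and 3.68 RPM, had a log2 fold change of -0.45 (SE 0.74), and all 3 members overlapped between the groups. The share of all features called was 0% at the adjusted threshold and 1.05% at an unadjusted p under 0.05, and the members called were 0 of 3 on both counts. mir-375 was at 0.66 with TMM (p = 0.0112, edgeR adjusted p = 1.00) and at 0.64 with DESeq2 (p = 0.000626, DESeq2 adjusted p = 0.367). Its fold change thus differed little between the fits, while its unadjusted p did. DESeq2 differs from edgeR in its test as well as its scaling, and which of these moved the p was not tested. Of all 4091 features, those with an unadjusted p under 0.05 were 59 higher and 25 lower with TMM. They were 75 higher and 108 lower with DESeq2, and 23 and 20 in the fit as given.

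With reads matching the genome as library size, lifelong restriction (PRPR against CTCT) gave log2 fold changes nearer 0 than the other restricted groups did. In log2 share that order did not hold for mir-375, which differed from CTCT by 0.38 in PRPR and 0.13 in CTPR mice. Nor did it hold for mir-532 (0.73 and 0.70), but it did for mir-29c (-0.04 and -0.25). PRPR mice ran from 4.81 through 9.91 to 23.3 RPM for mir-375, from 2.52 through 7.59 to 23.4 RPM for mir-532, and from 0 through 2.21 to 4.59 RPM for mir-29c. The log2 fold changes were 0.45 (SE 0.38) for mir-375, 0.22 (SE 0.55) for mir-532 and 0.02 (SE 0.72) for mir-29c, with ranges that overlapped throughout and 0 of 3 called where 0.0244% of all features were, or 0.953% at an unadjusted p under 0.05. The 3 contrasts above share the CTCT mice as control.

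When PRPR mice were set against PRCT mice, which share the early diet, the log2 fold changes were -0.23 for mir-375, -0.17 for mir-532 and 0.47 for mir-29c. Against CTPR mice, which share the late diet, they were -0.32, -0.60 and -0.73, of which the first became 0.17 and the last 0.041 with TMM scaling. No member was called in either contrast (0 of 3, against 0.0244% of all features in each), and at an unadjusted p under 0.05 it was again 0 of 3, against 0.538% of all features for PRCT and 3.91% for CTPR as the comparator. Whether the effect of the post-weaning diet depended on the diet before weaning was tested as an interaction, the CTPR minus CTCT difference less the PRPR minus PRCT difference. For mir-375 it was 1.01 on the log2 scale (SE 0.55, p = 0.0771, edgeR adjusted p = 0.998), for mir-532 0.99 (SE 0.79) and for mir-29c 0.28 (SE 1.05), the last of which became -0.43 with TMM scaling. No member was called here either, against 0.0244% of all features, or 1.12% at an unadjusted p under 0.05.

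Read as a share of the miRNA reads, the pattern was another one, and it concerned mir-532. In CTCT mice the lowest, median and highest shares of mir-532 were 0, 544 and 814 ppm, in PRCT mice 571, 852 and 1196, and in PRPR mice 568, 682 and 1146. Every mouse of both groups from PR dams lay above the CTCT median, although the groups overlapped. The germ line hairpins differed in the same direction as mir-532, with a median log2 fold change in share over the 17 tested (edgeR, miRNA reads as library size) of 0.30 for PRCT and 0.43 for PRPR against CTCT, beside 0.020 and 0.053 over all 190 hairpins, and of 0.32 for CTPR, beside 0.040. None of the 17 was called by edgeR at an adjusted p under 0.05, 1 had an unadjusted p under 0.05 in each of PRPR and CTPR and 0 in PRCT, and their part in the mir-532 difference was not tested. CTPR mice had 482, 626 and 1922 ppm, with a median between those of CTCT and PRPR mice and the highest single mouse of all.

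The difference between PRCT and CTCT mice was 0.92 on the log2 scale (two-sided exact permutation test on log2 share, p = 0.00311). It had the lowest p of the 190 hairpins in that contrast, with an adjusted p over those hairpins of 0.590, and 3.16% of the hairpins passed the unadjusted test. Between PRPR and CTCT mice the difference in mir-532 was 0.73 (permutation test, p = 0.00512, adjusted over 190 hairpins 0.324), where 6.84% of hairpins passed, and between CTPR and CTCT mice 0.70 (exact permutation test, p = 0.0765), where 7.89% passed. These differences failed the correction over the hairpins. These were 2 of 30 tests of share with an unadjusted p under 0.05, over 6 members and 5 contrasts, and none of the 6 members passed in PRPR against PRCT, where 5.26% of hairpins did, or against CTPR, where 4.21% did. The 30 include the tests of mir-32, mir-193a and mir-204, which were below the filter on low counts.

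A single CTCT mouse carried much of the size of the mir-532 difference. Mouse 07C3, with 0 mir-532 reads among few miRNA reads, was the lowest CTCT value, and without it the log2 differences fell to 0.57 for PRCT (exact permutation test, p = 0.00366), 0.39 for PRPR (p = 0.0110) and 0.36 for CTPR (p = 0.129). The share of the 190 hairpins that passed without this mouse was not computed. Without the 10 mice that had fewer than 50000 miRNA reads the mir-532 difference was 0.44 for PRCT (exact permutation test, p = 0.0291), 0.24 for PRPR (p = 0.104) and 0.09 for CTPR (p = 0.560), where 8.95%, 7.89% and 8.95% of the 190 hairpins passed. In the edgeR fit with miRNA reads as library size, the log2 fold change of mir-532 for PRCT against CTCT was 0.65 (p = 0.0124, adjusted p = 0.911), with 3.68% of the 190 hairpins at an unadjusted p under 0.05.

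**Figure D3:**
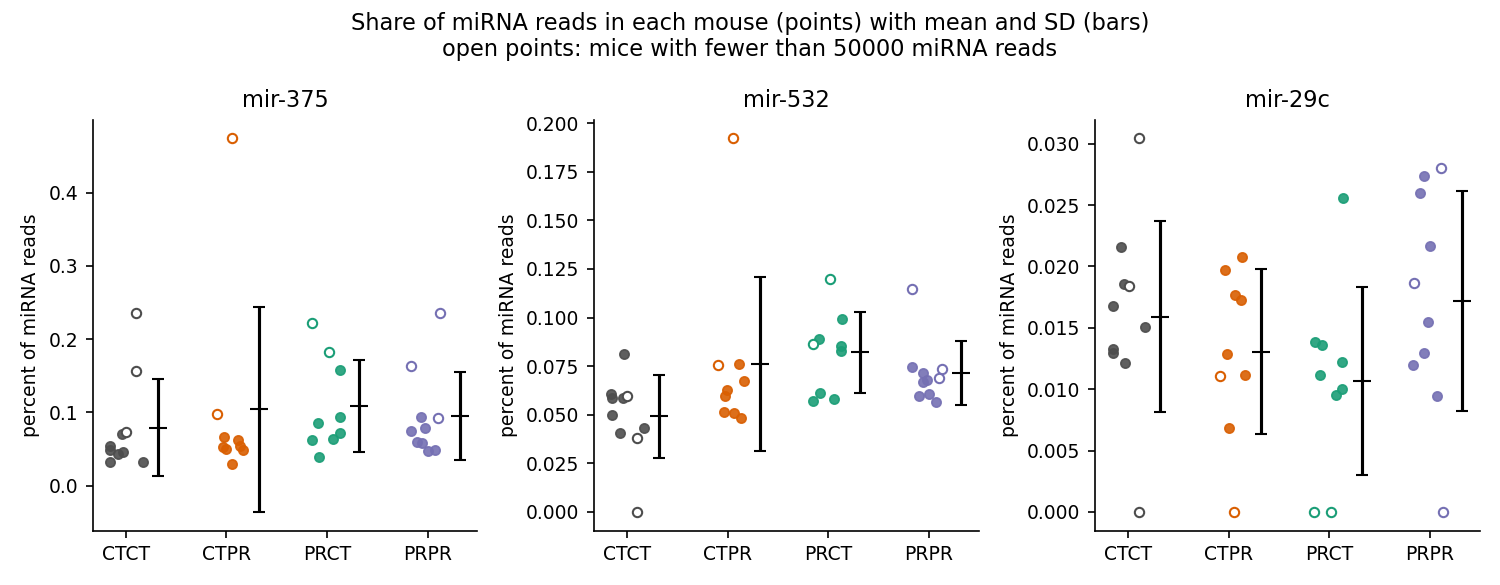
Share of mir-375, mir-532 and mir-29c among miRNA reads (y axis, percent) in every mouse, by diet group (x axis). A point is 1 mouse and the bars give the mean and SD. For mir-532 all PRCT and PRPR mice lie above the CTCT median of 544 ppm, and 1 CTCT mouse is at 0.

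The share of mir-375 ran from 322 through 515 to 2359 ppm in CTCT mice, from 296 through 547 to 4741 in CTPR, from 390 through 852 to 2218 in PRCT and from 477 through 763 to 2359 in PRPR mice. The medians of the groups from PR dams were the higher ones, but the highest mouse of all was a CTPR mouse and the groups overlapped throughout. The log2 difference from CTCT was 0.56 for PRCT (exact permutation test, p = 0.185, adjusted over 190 hairpins 0.968), 0.38 for PRPR (permutation test, p = 0.331) and 0.13 for CTPR (exact permutation test, p = 0.797). Without the 10 mice with few miRNA reads, a choice made after seeing the data, it was 0.74 for PRCT (exact permutation test, p = 0.0181, adjusted 0.343), 0.50 for PRPR (p = 0.0344, adjusted 0.544) and 0.16 for CTPR (p = 0.458), where the shares of hairpins that passed were the 8.95%, 7.89% and 8.95% given for mir-532. For mir-29c the medians were 159 in CTCT, 129 in CTPR, 112 in PRCT and 171 in PRPR mice, with 0 as the lowest value in each group and 304 in CTCT as the highest of all.

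The share of mir-375 also followed how much miRNA a library held. Its median was 1728 ppm in the 10 mice with fewer than 50000 miRNA reads and 562 in the other 28 mice. Over all 38 mice the log2 share of mir-375 and the miRNA percentage of the library gave Pearson's r = -0.77 (permutation p = 1e-05, the smallest that 100000 permutations can give, adjusted 2e-05) and Spearman's rho = -0.57 (permutation p = 0.00028, adjusted 0.00042). r was -0.71 without the 2 mice farthest from the median on the x axis, but -0.16 in the 28 mice with at least 50000 miRNA reads, so the relation rests on the mice with few miRNA reads. In RPM, mir-375 went the other way with the miRNA percentage, at r = 0.66 (permutation p = 2e-05, adjusted 3.43e-05; 0.63 without the 2 farthest mice and 0.74 in the 28 mice) and rho = 0.72 (p = 1e-05, adjusted 2e-05). mir-532 (r = 0.86, rho = 0.93) and mir-29c (r = 0.87, rho = 0.88) did the same in RPM (each permutation p = 1e-05, adjusted 2e-05), and r was 0.93 and 0.82 without the 2 farthest mice. These are among 12 coefficients computed, for the 3 members tested on 2 scales, and the miRNA reads enter both measures. The permutations treated littermates as independent mice. Both brothers of litters 02A, 09H, 08G and 14A were among the mice with few miRNA reads, so the p-values may overstate the evidence. For mir-532 r was 0.10 (permutation p = 0.545, adjusted 0.545) and rho -0.20 (p = 0.225, adjusted 0.270). For mir-29c r was 0.40 (permutation p = 0.0121, adjusted 0.0161), 0.30 without the 2 farthest mice and -0.13 in the 28 mice, and rho was 0.11 (p = 0.521, adjusted 0.545).

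**Figure D4:**
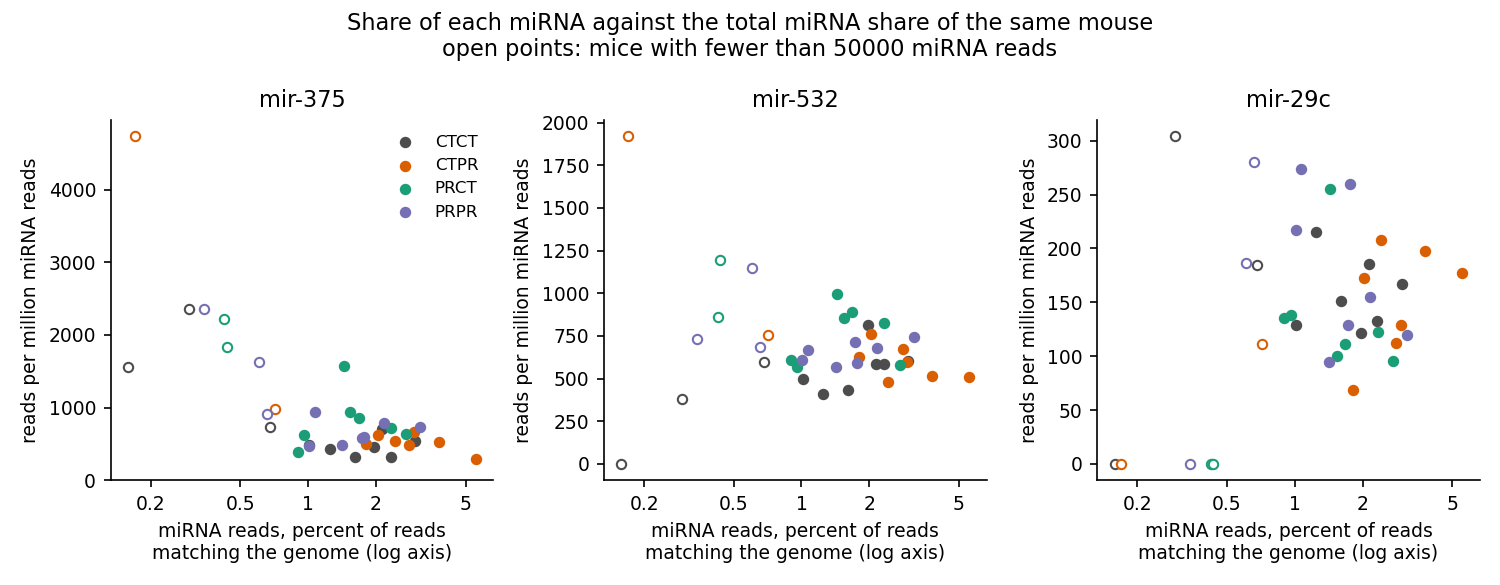
Share of mir-375, mir-532 and mir-29c among miRNA reads (y axis, ppm) against the percentage of genome-matching reads that were miRNA (x axis, log scale), 1 point per mouse, coloured by diet group. The mir-375 points rise toward the left, where the 10 mice with few miRNA reads have a median of 1728 against 562 in the others.

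Littermates compare the post-weaning diets within a litter. For mir-375 the CTPR brother had more RPM than the CTCT brother in 7 of 8 litters, 1 of them litter 47I with its conflicting diets. By the labels, it went from CTCT to CTPR from 6.94 to 8.05 RPM in litter 02A, from 5.01 to 6.96 in 09H, from 5.37 to 19.6 in 35F and from 16.3 to 20.1 in 47I. It went from 7.49 to 8.99 RPM in litter 49K, from 8.97 to 13.3 in 53M and from 5.17 to 16.4 in 57P, and in litter 45L it went down from 15.0 to 13.7. Litters 35F and 57P thus gave the steepest rises, and the other rises were of a few RPM. The miRNA total in RPM also rose most in these litters, by log2 values of 1.25 in 35F and 1.79 in 57P. It was higher in the CTPR brother in 6 litters and lower in 2. Its average log2 change was 0.37 (sign-flip permutation test, exact p = 0.266). As a share of miRNA reads, mir-375 rose from 431 to 663 ppm in 35F and fell from 322 to 296 ppm in 57P. By share mir-375 was higher in the CTPR brother in 5 litters and lower in 3.

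The mean log2 difference of mir-375 between CTPR and CTCT littermates was 0.65 ± 0.71 (SD, n = 8; exact sign-flip permutation test, p = 0.0156, adjusted over 190 hairpins 0.297), where the smallest p that 8 litters allow is 0.00781. Without litter 47I it was 0.70 and higher in 6 of 7 litters (exact, p = 0.0312), and with the brothers of 47I exchanged it was 0.57 and higher in 6 of 8 (exact, p = 0.0625), so an unadjusted p under 0.05 held without that litter but not with its brothers exchanged. The same test passed for 8.95% of the 190 hairpins. As a share of miRNA reads the mir-375 difference was 0.27 (exact sign-flip permutation test, p = 0.172), and 6.84% of hairpins passed on that scale. In the 6 litters in which both brothers had at least 50000 miRNA reads the RPM difference was 0.75 (exact, p = 0.0625, smallest possible 0.0312). Among the sons of PR dams, the PRPR brother was higher in mir-375 in 3 of 9 litters, with a mean log2 difference of -0.20 (exact, p = 0.426).

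mir-532 was higher in the CTPR brother in 6 of 8 litters (mean log2 difference in RPM 0.70, exact sign-flip permutation test, p = 0.0938) and in the PRPR brother in 4 of 9 (-0.22, p = 0.418). mir-29c was higher in RPM in the PRPR brother in 6 of 9 litters, lower in 2 and at 0 in both brothers of the remaining litter, with a mean log2 difference of 0.64 ± 1.29 (SD, n = 9; exact, p = 0.0391, adjusted over 190 hairpins 1.00). Of the 190 hairpins, 1.58% passed that test. Litter 08G, in which mir-29c went from 0 to 7 reads, contributed a difference of 3.99, and without it the mean was 0.22 (exact, p = 0.0781). As a share the mir-29c difference was 0.71 (exact, p = 0.0547), where 5.79% of hairpins passed. In CTPR against CTCT littermates mir-29c was higher in 4 of 8 litters (-0.17, p = 0.781). These were 2 of 24 littermate tests of the members with an unadjusted p under 0.05. The 24 include those of mir-32, mir-193a and mir-204, which were below the filter on low counts.

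**Figure D5:**
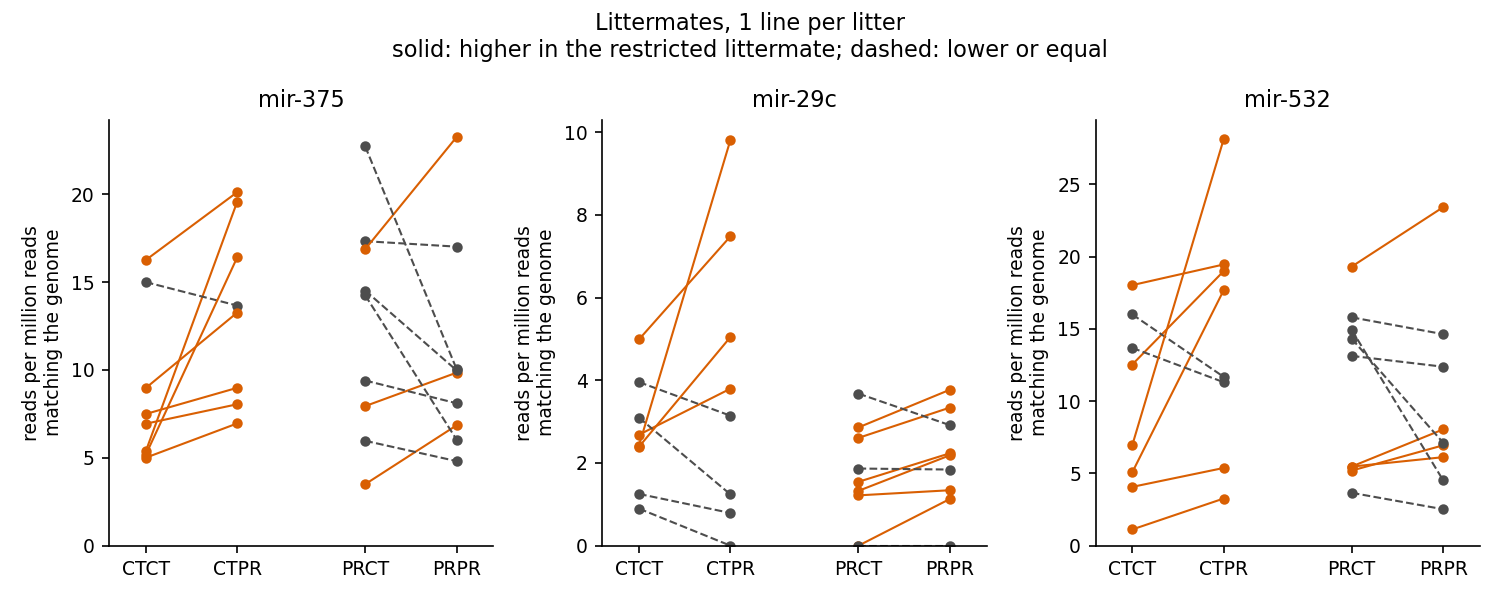
mir-375, mir-532 and mir-29c in littermates (y axis, RPM) on the control and the PR diet after weaning (x axis), each line 1 litter, for CT and PR dams. For mir-375 the line rises from CTCT to CTPR in 7 of 8 litters and from PRCT to PRPR in 3 of 9.

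The remaining 3 members did not pass the filter on low counts, and 3 reads corresponded to 0.394 to 0.672 RPM depending on the mouse. mir-32, from the intron of Tmem245, had 261 reads in all and was found in 25 of 38 mice. It was detected in 8 CTCT, 6 CTPR, 5 PRCT and 6 PRPR mice, with medians of 0.558, 1.90, 0.332 and 0.657 RPM and highest values of 1.61, 7.03, 1.72 and 5.19 RPM. The lowest value was 0 in every group. The highest CTPR mouse held 48 of the 114 mir-32 reads of its group, and the groups overlapped throughout.

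mir-204, from the intron of Trpm3, had 217 reads in 27 mice. It was detected in 8 CTCT, 6 CTPR, 6 PRCT and 7 PRPR mice, with medians of 0.685, 0.733, 0.870 and 0.926 RPM and highest values of 1.29, 3.66, 1.43 and 2.62 RPM. The groups overlapped throughout, and no order of the groups can be read from these counts. mir-193a had 8 reads in the whole study, 1 and 2 in a pair of CTPR mice and 3 and 2 in a pair of PRCT mice, and none in any CTCT or PRPR mouse. There a count of 0, if taken to allow up to 3 reads, stands for up to 0.672 RPM. A difference in mir-193a was not detectable at this depth. In the tests of share, the lowest unadjusted p of these 3 members was 0.234 (permutation test).

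The relatives of the members that share a seed or a transcript with them were also measured. Of 11 hairpins with a member's seed, 10 were detected and 5 tested, and 0 were called in any contrast. The 3 highest had more reads than every member, with mir-25 at 4439, mir-29a at 4433 and mir-92a-1 at 2954 ppm. By reads, mir-32 and mir-29c were therefore minor sources of their seeds. In CTPR against CTCT mice the median log2 fold change of the 5 tested was 0.61, beside 0.78 over all 190 hairpins. Of 7 hairpins beside a member in the genome 6 were detected, and only mir-29b-2, which also carries the seed of mir-29c and at 104 ppm lay below it, was tested. Its log2 fold changes against CTCT in RPM were 0.43 for CTPR, -0.97 for PRCT and -0.44 for PRPR.

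The hairpins whose share was most like that of a member over the 38 mice, by Pearson's r of the log2 share, are given as a description, since all points share the miRNA total as denominator. For mir-375 they were mir-25 (r = 0.89, rho = 0.78) and mir-106b (r = 0.89, rho = 0.86), which are neighbours in 1 cluster. For mir-532 they were mir-465a (r = 0.75, rho = 0.41), a hairpin of the germ line list, and mir-148b (r = 0.74, rho = -0.0043), whose rank correlation was near 0. For mir-29c they were mir-34a (r = 0.64, rho = 0.45) and mir-96 (r = 0.61, rho = 0.42).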

How the data were processed

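The authors mapped small RNA reads with the SPORTS 1.0 pipeline to mm10, as the paper and the submitters' processing notes give it, and deposited, mouse by mouse, the unnormalised counts of reads in every small RNA class and class member. Rows of miRNA hairpins that match the genome were used, and the column of counts was divided by the reads matching the genome (RPM) or by all reads of matching miRNA hairpins. Aligner settings and database versions are not given in the sources used here.

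Counts of 4091 class members with at least 10 reads in at least 19 mice were fitted with edgeR 4.0.16 in R 4.3.3 (glmQLFit, glmQLFTest, all groups in 1 fit, reads matching the genome as library size), and p-values were adjusted by Benjamini-Hochberg over all of them. On simulated counts for CTPR against CTCT, this recovered 0% of 200 features changed by a log2 value of 1 and 15.5% of those changed by 2. Log2 RPM and log2 share, with 0.5 reads added to the count, were compared by permuting mice between groups (two-sided; 100000 permutations for 10 against 10 mice, every arrangement otherwise) in Python 3.11.15 with scipy 1.17.1, numpy 2.4.6 and pandas 2.3.3. Littermates were compared with exact sign-flip permutation tests. Litters come from the mouse names in the labels. Deviations of littermates from their group means, over 190 hairpins, correlated with a median r of 0.128 in 17 pairs (-0.191 to 0.526, over 0.1 in 9). Alternatives were TMM, miRNA reads as library size, DESeq2 1.42.0, other filters, litter as a block, the other grouping of litter 47I and leaving out mice. Leaving out mice with fewer than 50000 miRNA reads and exchanging the littermates of 47I were chosen after seeing the data.

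Named are the 6 members, the 2 hairpins most like each tested member, and up to 3 hairpins of each list by level. The members and lists were chosen with earlier results of these data known. Intervals for single counts cover counting error only.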

Additional observations from a re-analysis of the deposited data

Results flagged for a closer look

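Of 44 sets of values, 1 member in 1 group on 1 scale, 10 held a mouse that stood far from the rest of its group (Dixon's test at the 95% level). The nominal rate of about 1 in 20 is for independent values with a normal spread. These were sparse counts, with the same mice on 2 scales, so the number flagged cannot be set against that rate. The intervals are exact 95% counting intervals. In RPM, mir-32 stood out in CTPR mouse 57P1 at 7.03 (48 reads, interval 5.19 to 9.32, next mouse 2.31) and in PRPR mouse 40H3 at 5.19 (33 reads, interval 3.57 to 7.29, next mouse 1.72). The other values are in ppm of the miRNA reads and come, apart from 1, from mice with fewer than 50000 miRNA reads. CTCT mouse 07C3 had mir-532 at 0 (0 reads, next mouse 380.5) and mir-204 at 489 (5 reads, interval 159 to 1140). CTPR mouse 02A8 had mir-375 at 4741 (37 reads, interval 3340 to 6528, next mouse 977) and mir-532 at 1922 (15 reads, interval 1076 to 3168). PRCT mouse 14A4 had mir-204 at 205 (5 reads) and PRPR mouse 08G5 had mir-532 at 1146 (43 reads, interval 829 to 1543). mir-193a stood out with 1 read in CTPR mouse 09H5, at 22.2, and with 3 reads in PRCT mouse 31A3, at 51.9. The causes were not tested.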

How the results depend on the processing

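No member was called in the edgeR tests under any alternative run. The threshold was an adjusted p under 0.05 in the edgeR and DESeq2 fits and an unadjusted p under 0.05 in the tests of share and of littermates. Of single values of the members with no mouse left out singly, 285 kept their direction and side of that threshold and 20 reversed. In the tests of share and of littermates, 3 gained and 4 lost an unadjusted p under 0.05. Changes in the unadjusted p of the fits, such as those of mir-375 in PRCT against CTCT, were not counted. The reversals were as follows, in log2 units. For mir-29c, CTPR against CTCT became -0.16 with miRNA reads as library size and -0.048 with litter as a replicate block, PRPR against CTCT became -0.13 with litter 47I in the other grouping, -0.041 without mice 07C3, 35F2, 31A3 and 08G5 and -0.033 without mice with few miRNA reads, and PRPR against CTPR became 0.041 with TMM and 0.28 with miRNA reads. The mir-29c interaction became -0.43 with TMM, -0.75 with miRNA reads, -0.41 with DESeq2 and -0.61 with the block. PRPR against CTPR became 0.17 with TMM, 0.080 with miRNA reads and 0.14 with DESeq2 for mir-375, and 0.021 with miRNA reads for mir-532. As a share of miRNA reads, mir-29c in PRPR against CTCT became 0.10 without mice with few miRNA reads and 0.00123 percentage points on the linear scale, where PRPR against CTPR became -0.00894 for mir-375 and -0.00459 for mir-532. The causes of these reversals were not tested.

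With a mouse left out in turn, the edgeR log2 fold change in PRPR against CTCT ran from -0.14 to 0.22 for mir-29c and from -0.030 to 0.42 for mir-532, and the mir-29c interaction from -0.028 to 0.48. In log2 share, mir-29c in PRPR against CTCT ran from -0.22 to 0.24, mir-375 in CTPR against CTCT from -0.21 (without mouse 02A8) to 0.34, and mir-532 in PRPR against CTPR from -0.050 to 0.22. Shares of mir-532 kept an unadjusted p under 0.05 without any 1 mouse, at 0.00107 to 0.0101 for PRCT and 0.000249 to 0.0173 for PRPR against CTCT (permutation tests), while mir-532 in CTPR against CTCT gained one without CTCT replicate 7 (0.81) or without the 3 most abundant hairpins in the total (0.73). Leaving out 1 mouse gave mir-29c an unadjusted p under 0.05 in PRCT against CTCT (-1.03 without PRCT replicate 9, -1.02 without CTCT replicate 1) and in PRPR against PRCT (1.08 without PRPR replicate 1), and mir-375 in PRCT against CTCT (0.77 without CTCT replicate 2). These stand among many runs, and the share of all hairpins tested that passed with a mouse left out was not computed. Of 24 littermate tests 2 had a p under 0.05, 0 without litters that held a mouse with few miRNA reads, 1 with the brothers of litter 47I exchanged, and 1 to 3 with a litter left out. It was 1 without 08G, 31A, 40H or 46I, and 3 without 53M. Without any of 08G, 31A, 39F, 40H or 46I the mir-29c difference between PRPR and PRCT brothers had p = 0.0781 (exact sign-flip permutation test), with a mean of 0.22 to 0.68. The mir-29c difference between CTPR and CTCT brothers ran from -0.47 to 0.27, and was 0.42 without the litters with few miRNA reads.

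With litter as a block, mir-375 was at 0.64 and mir-532 at 0.70 for CTPR against CTCT and at -0.20 and -0.21 for PRPR against PRCT, and no member was called. Over all features the block called 0 in PRPR against PRCT and 0 in the interaction, against 1 without it. Dams on different diets share no litter, so the other contrasts could not be blocked. Without the filter on low counts 198 to 2703 of 638403 features were called, and DESeq2 called 0 to 3 of 4091. mir-32, mir-193a and mir-204, with 261, 8 and 217 reads, are limited by depth.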
